A study of Mus musculus with 12 samples.

Results

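Cux2, Rorb, Lamp5, Tbr1, Fezf2, Bcl11b, Foxp2 and Tle4 are genes by which neurons of the cortical layers are commonly told apart. Mef2c, which neurons of several cortical layers express, was listed with them, and the list is called layer genes here. The genes were picked by gene symbol from a table of mouse brain expression values, and all 9 were present among its 27381 genes. RNA was hybridised to 12 whole-transcript microarrays in 4 groups of 3 pools: anterior cingulate cortex (ACC) of trained mice, ACC of control mice, hippocampus (HC) of trained mice and HC of control mice. All mice were C57B16/J (the strain as the labels spell it) of both sexes. They had surgery for head fixation at an age of 8 to 12 weeks, recovered for 7 days, were deprived of water and ran on a ball held up by air. Trained mice learned to answer a visual cue for a water reward, and control mice, which the sample labels call untrained, received water at random intervals without that rule. Pools 1 and 2 of each group are labelled batch 1 and pool 3 batch 2. The labels give 5 mice for an ACC pool and 7 for an HC pool, and count 16 male and 18 female mice, too few for 6 HC pools of separate animals. The study's methods give a larger number of mice and describe the pools of a condition as unique. The study paired each trained mouse with a control littermate of the same sex, and took ACC and HC from the same animals. Whether pools of ACC and HC share mice is not given. The tests treated all pools as independent. The p-values measure the spread between pools, not between mice.

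The excitatory neurons of the cerebral cortex are born in sequence and settle in layers that send their axons to different targets. Upper layer neurons mostly link cortical areas with each other, layer 5 holds the neurons that reach the brainstem and spinal cord, and layer 6 neurons project largely to the thalamus. Transcription factors set these identities during development and remain expressed in the adult. The hippocampus is a simpler form of cortex in which several of the same factors are used, among them Bcl11b in neurons of the dentate gyrus and CA1. The mouse ACC belongs to the agranular cortex, where layer 4 is thin or lacking.

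Array medians lay between 3.34 and 3.42 on the log2 scale, and the precision depends on the number of pools. The background of the array was taken from 1365 receptor genes of the nose (odorant and vomeronasal), whose 95th percentile was 2.76. All 9 genes had means above that level. Of 18 measured genes of hippocampal subfield neurons, 1 was higher and 14 were lower in ACC, against 8.74% and 9.71% of all genes by the rule given below. Genes of the choroid plexus, which lies in the ventricles and makes cerebrospinal fluid, were also lower in ACC, in 13 of 13 cases. Prox1, the factor of dentate granule neurons, differed by −2.54 and Cabp7 by −2.57 between ACC and HC. The choroid plexus genes averaged 3.04 to 3.20 in the ACC pools, with HC trained pool 2 at 4.25 and the rest of the HC pools at 4.80 to 4.98. Ttr, the thyroxine carrier of that tissue, differed by −5.42 and Kl, which encodes klotho, by −2.91.

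The first question was how far the layer genes separated ACC from HC. Expression was higher in ACC for 6 of the 9 genes (Lamp5, Foxp2, Mef2c, Cux2, Tbr1 and Fezf2), lower in ACC for Bcl11b, and did not pass the test for Rorb and Tle4. Lamp5 had the widest difference, 3.35-fold, and Fezf2 the narrowest of those that passed, 1.28-fold. Pools of both training states were combined here, 6 ACC pools against 6 HC pools, and a gene was called at an adjusted p under 0.05 from limma (a linear model of log2 values with variances moderated across genes, and p-values adjusted over the whole table by the method of Benjamini and Hochberg). Of all 27381 genes, 18.5% were called by this rule, 8.74% higher and 9.71% lower in ACC. Among the 13691 genes at or above the median level, to which all 9 belong, the shares were 13% and 17%. The 9 genes were chosen with earlier results of these data known, so these shares give a scale and do not test the list. The median difference of the 9 genes was 1.03 on the log2 scale, against 0.01 over all genes, and 95% of all differences lay between −0.53 and 0.48. RNA from bulk tissue cannot tell fewer cells of a type apart from less RNA per cell.

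**Figure D1:**
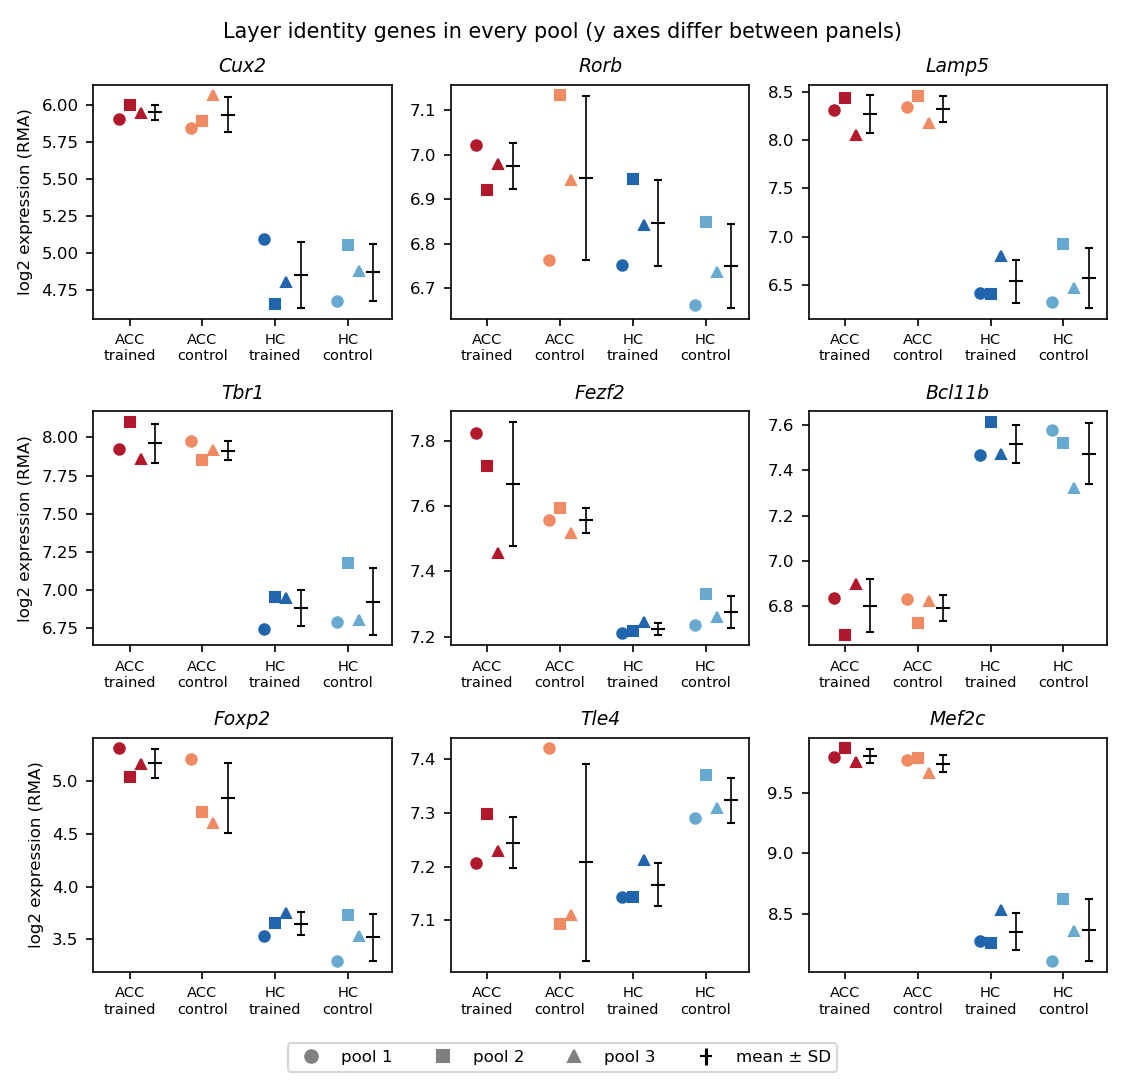
Expression of the 9 layer identity genes (y axis, log2 value after Robust Multiarray Average) in each of the 12 pools, by group (x axis), with the group mean and SD (n = 3) in black. ACC pools lie above all HC pools for Cux2, Lamp5, Tbr1, Fezf2, Foxp2 and Mef2c, below them for Bcl11b, and among them for Rorb and Tle4.

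Among the upper layer genes, Cux2 (Entrez gene 13048) encodes a homeodomain transcription factor of neurons of layers 2 to 4. Its log2 values in pools 1, 2 and 3 were 5.90, 6.01 and 5.95 in ACC trained, 5.84, 5.89 and 6.07 in ACC control, 5.09, 4.65 and 4.80 in HC trained and 4.67, 5.05 and 4.88 in HC control. Every ACC pool was above every HC pool, while trained and control pools overlapped within each region. Cux2 averaged 5.94 ± 0.08 in ACC and 4.86 ± 0.19 in HC (SD, n = 6 each), a difference of 1.09 (SE 0.09, adjusted p = 1.6e-06 from limma) or 2.12-fold. Its difference held rank 83 from the top among all genes.

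Lamp5 (Entrez gene 76161) encodes a lysosome-associated membrane protein family member of superficial layer neurons and of a class of interneurons. Pools 1, 2 and 3 had log2 values of 8.32, 8.44 and 8.05 in ACC trained, 8.34, 8.45 and 8.18 in ACC control, 6.41, 6.41 and 6.80 in HC trained and 6.32, 6.92 and 6.47 in HC control. The lowest ACC pool stood more than 1 log2 unit above the highest HC pool. Lamp5 averaged 8.30 ± 0.16 in ACC and 6.55 ± 0.24 in HC (SD, n = 6 each). The difference of 1.74 (SE 0.11, adjusted p = 2.9e-07 from limma) held rank 8 from the top among all genes. Within batch 1 it was 1.87, and within batch 2 it was 1.48.

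Rorb (Entrez gene 225998) encodes a nuclear receptor of layer 4 neurons, and it did not follow the other upper layer genes. On the log2 scale, pools 1, 2 and 3 had 7.02, 6.92 and 6.98 in ACC trained, 6.76, 7.13 and 6.94 in ACC control, 6.75, 6.94 and 6.84 in HC trained and 6.66, 6.85 and 6.74 in HC control. The regions overlapped: ACC control pool 1 lay below several HC pools, and HC trained pool 2 (6.94) lay above ACC trained pool 2 (6.92). The difference was 0.16 (95% interval 0.01 to 0.31, adjusted p = 0.131 from limma). Without ACC control pool 1 it was 0.21 and passed the test (adjusted p = 0.0466). It did not pass when any other single pool was left out, with differences down to 0.12 and adjusted p up to 0.270 from limma.

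Among the deep layer genes, Tbr1 (Entrez gene 21375) encodes a T-box transcription factor of layer 6 neurons. In pools 1, 2 and 3, the log2 values were 7.92, 8.10 and 7.86 in ACC trained, 7.97, 7.85 and 7.92 in ACC control, 6.75, 6.95 and 6.95 in HC trained and 6.79, 7.18 and 6.81 in HC control. All ACC pools were above all HC pools, and the highest HC pool was HC control pool 2. Tbr1 averaged 7.94 ± 0.09 in ACC and 6.90 ± 0.16 in HC (SD, n = 6 each), a difference of 1.03 (SE 0.08, adjusted p = 1.2e-06 from limma) or 2.05-fold.

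Foxp2 (Entrez gene 114142) encodes a forkhead transcription factor of layer 6 neurons, which neurons of the striatum and thalamus also express. Pools 1, 2 and 3 had log2 values of 5.31, 5.04 and 5.16 in ACC trained, 5.21, 4.70 and 4.60 in ACC control, 3.53, 3.66 and 3.75 in HC trained and 3.29, 3.73 and 3.53 in HC control. The regions did not overlap. Within ACC, the spread was wide, with ACC control pool 1 among the trained pools and the other two control pools below all of them. Foxp2 averaged 5.00 ± 0.29 in ACC and 3.58 ± 0.17 in HC (SD, n = 6 each), a difference of 1.42 (SE 0.11, adjusted p = 1.2e-06 from limma) or 2.68-fold. Of 12 measured genes of striatal projection neurons, 4 were higher and 2 lower in ACC. Meis2 (0.71) and Foxp1 (0.38) were among the higher, and Foxp1 also counts among the layer 6 and subplate genes and the paralogs below. The lower genes, named after their values were seen, were Drd2 (−0.38) and Syndig1l (−0.37). Drd1 (0.31), Ppp1r1b (0.06) and Pde10a (0.002) did not pass the test. The mean of the 12 genes was 5.00 to 5.10 in the ACC pools against 4.79 to 4.97 in the HC pools. Of 12 genes of thalamic neurons, 2 were higher and 6 lower in ACC, with Lhx9 at −1.50 and Calb2 at −1.59, and their mean was 4.47 to 4.58 in ACC pools against 4.88 to 4.99 in HC pools. The part of either tissue in the Foxp2 values was not tested.

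Fezf2 (Entrez gene 54713) encodes a zinc finger factor that sets the identity of layer 5 neurons with axons to the brainstem and spinal cord. In pools 1, 2 and 3, the log2 values were 7.82, 7.72 and 7.46 in ACC trained, 7.56, 7.59 and 7.52 in ACC control, 7.21, 7.22 and 7.24 in HC trained and 7.24, 7.33 and 7.26 in HC control. All ACC pools were above all HC pools, by a small margin. Fezf2 averaged 7.61 ± 0.14 in ACC and 7.25 ± 0.04 in HC (SD, n = 6 each), a difference of 0.36 (SE 0.06, adjusted p = 0.00129 from limma). Among trained pools it was 0.44 (adjusted p = 0.00664) and among control pools 0.28 (adjusted p = 0.0583), and the difference between these values, 0.16, did not pass the test (adjusted p = 0.753).

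Bcl11b (Entrez gene 58208, also known as Ctip2) encodes a zinc finger factor that acts after Fezf2 in layer 5 neurons, and it ran opposite to Fezf2. The log2 values of pools 1, 2 and 3 were 6.84, 6.68 and 6.90 in ACC trained, 6.83, 6.73 and 6.82 in ACC control, 7.47, 7.61 and 7.47 in HC trained and 7.58, 7.52 and 7.32 in HC control. Every ACC pool was below every HC pool. Bcl11b averaged 6.80 ± 0.08 in ACC and 7.49 ± 0.10 in HC (SD, n = 6 each), a log2 difference of −0.70 (SE 0.06, adjusted p = 6.1e-06 from limma) that makes it lower in ACC. Batch 1 alone gave −0.78 and batch 2 alone −0.54. The genes of hippocampal subfield neurons averaged 5.47 to 5.59 in ACC pools and 6.55 to 6.77 in HC pools, and their part in the Bcl11b values was not tested.

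Tle4 (Entrez gene 21888) encodes a corepressor of the Groucho family that marks layer 6 neurons. On the log2 scale, pools 1, 2 and 3 had 7.21, 7.30 and 7.23 in ACC trained, 7.42, 7.09 and 7.11 in ACC control, 7.14, 7.14 and 7.21 in HC trained and 7.29, 7.37 and 7.31 in HC control. ACC control pools held both the highest and the lowest value of all pools. Tle4 averaged 7.23 ± 0.12 in ACC and 7.25 ± 0.09 in HC (SD, n = 6 each). The difference of −0.02 had a 95% interval of −0.16 to 0.12 (adjusted p = 0.881 from limma), which leaves out differences of the size seen for the genes that passed.

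Mef2c (Entrez gene 17260) encodes a MADS-box transcription factor that neuronal activity regulates and that neurons of several cortical layers express. Its log2 values in pools 1, 2 and 3 were 9.79, 9.87 and 9.75 in ACC trained, 9.77, 9.79 and 9.66 in ACC control, 8.28, 8.26 and 8.53 in HC trained and 8.11, 8.63 and 8.36 in HC control. The ACC pools lay close together and above all HC pools, which spread more widely. Mef2c averaged 9.77 ± 0.07 in ACC and 8.36 ± 0.19 in HC (SD, n = 6 each), a difference of 1.41 (SE 0.08, adjusted p = 1.8e-07 from limma) or 2.66-fold, with rank 28 from the top among all genes.

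Across the list, all 6 ACC pools were above all 6 HC pools for 6 genes and below them for 1 gene, while 5.09% of all genes were above and 5.99% below in this way. The same genes were called when trained pools alone were compared (6 higher and 1 lower, against 4.53% and 4.78% of all genes). Among control pools 5 were higher and 1 was lower, against 6.4% and 6.93% of all genes, and Fezf2 was the gene that did not pass. The sign of the difference was the same in both batches for 8 of the 9 genes, with Tle4 as the exception. For the 7 genes that passed, the 4 group means ordered with both groups of the higher region first. No difference between trained and control pools within a region passed the test for them.

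**Figure D2:**
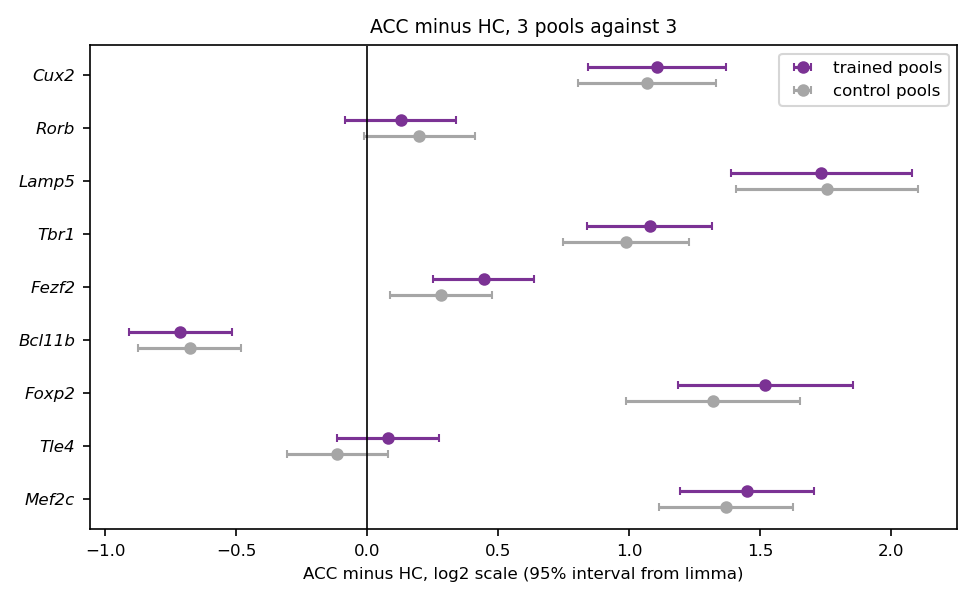
Difference between ACC and HC (x axis, log2 scale, ACC minus HC) for each gene (y axis), for trained pools and for control pools (3 against 3), with 95% intervals from limma. Lamp5 lies farthest to the right, Bcl11b alone lies wholly below 0, and the intervals of Rorb and Tle4 include 0.

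The stretches before the transcription start are shown for Lamp5 and Mef2c, which had the highest ranks by p of the 9 genes and were both higher in ACC, and for Bcl11b, which was lower in ACC. They come from RefSeq (GRCm38.p6), run 5′ to 3′ and end at the last base before the start. They lie at chr2:136052089-136052338 on the plus strand for Lamp5, chr13:83503784-83504033 on the plus strand for Mef2c and chr12:108003415-108003664 on the minus strand for Bcl11b. Capitals mark the CCAAT box (CCAAT) and the TATA box (TATAAA) on either strand.
Lamp5: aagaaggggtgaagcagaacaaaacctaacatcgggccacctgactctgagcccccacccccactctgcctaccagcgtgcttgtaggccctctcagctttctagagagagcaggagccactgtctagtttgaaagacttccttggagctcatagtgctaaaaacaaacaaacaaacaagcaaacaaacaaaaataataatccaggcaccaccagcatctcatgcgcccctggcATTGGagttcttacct
Mef2c: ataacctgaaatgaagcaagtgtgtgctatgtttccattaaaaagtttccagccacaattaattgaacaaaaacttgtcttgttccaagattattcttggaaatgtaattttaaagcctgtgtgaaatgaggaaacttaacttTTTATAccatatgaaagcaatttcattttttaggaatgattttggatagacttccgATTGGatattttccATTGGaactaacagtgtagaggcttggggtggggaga
Bcl11b: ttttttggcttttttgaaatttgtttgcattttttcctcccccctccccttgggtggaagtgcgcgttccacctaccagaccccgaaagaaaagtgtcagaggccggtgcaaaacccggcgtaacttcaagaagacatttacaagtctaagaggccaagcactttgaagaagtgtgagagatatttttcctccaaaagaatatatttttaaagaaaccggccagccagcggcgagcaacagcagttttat
Of the 9 genes, 8 had such a stretch in the table used. The CCAAT box was found in 4 of these (Rorb, Lamp5, Tle4 and Mef2c) and in 34.5% of 27025 promoters of the same length. The TATA box was found in 1 of 8 (Mef2c) and in 13% of all, and the Sp1 box (GGGCGG) in 4 of 8 (Rorb, Tbr1, Fezf2 and Tle4) and in 33% of all. Sites of several families of transcription factors were searched on both strands, and none of the 8 stretches held the MEF2 box (CTA and TAG with 4 bases between them, in 3.23% of all), the T-box site (AGGTGT, in 12% of all), the ROR site (AGGTCA, 13.8%), the forkhead site (TGTTTAC, 3.06%) or the E-box (CAGATG, 14.5%). This says only that these letters are not in these windows. Base composition ranged widely, with 33.6% G and C for Mef2c, 44.8% for Bcl11b, 49.2% for Lamp5 and 80% for Cux2, against a median of 52% over all promoters.

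The second question was whether training moved the layer genes. No layer gene passed the test for trained against control pools, in ACC or in HC, and neither did the difference between the regions' training effects. This was also so for all 27381 genes (0% called in each of these comparisons by limma), while 6.95% of genes in ACC and 6.82% in HC had an unadjusted p under 0.05, and 8.86% had for the difference between the regions. None of the 9 genes was among those. In ACC the differences ran from −0.06 for Lamp5 to 0.33 for Foxp2, with 8 positive and 1 negative and a median of 0.04. In HC they ran from −0.16 for Tle4 to 0.13 for Foxp2, with 3 positive and 6 negative and a median of −0.02. Over all genes, 95% of the differences lay between −0.30 and 0.27 in ACC and between −0.28 and 0.30 in HC. The sign was the same in both batches for 4 of 9 genes in ACC and for 4 of 9 in HC.

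Foxp2 had the largest training difference of the 9 genes in ACC. It averaged 5.17 ± 0.14 in ACC trained and 4.84 ± 0.33 in ACC control (SD, n = 3 each), a difference of 0.33 (95% interval −0.003 to 0.66, adjusted p = 0.722 from limma). The groups overlapped through ACC control pool 1, and without that pool the difference was 0.52 (adjusted p = 0.412). Without ACC control pool 3 it was 0.21 (adjusted p = 0.944). Batch 1 gave 0.22 and batch 2 gave 0.56. Foxp2 averaged 3.65 ± 0.11 in HC trained and 3.52 ± 0.22 in HC control (SD, n = 3 each), a difference of 0.13 that was 0.018 without HC control pool 1 and 0.24 without HC control pool 2.

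Tle4 was the gene for which trained and control pools did not overlap in HC. All 3 HC trained pools were below all 3 HC control pools, as were 6.26% of all genes (12.3% did not overlap in either direction), with means of 7.17 ± 0.04 in HC trained and 7.32 ± 0.04 in HC control (SD, n = 3 each). The difference of −0.16 did not pass the test (95% interval −0.35 to 0.04, adjusted p = 0.811 from limma). In ACC the Tle4 difference was 0.04, and the difference between the regions, 0.19, did not pass either (adjusted p = 0.696).

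For the other 7 genes the training differences were between −0.06 and 0.11 in ACC and between −0.05 and 0.10 in HC. Mef2c, the activity-regulated factor, averaged 9.80 ± 0.06 in ACC trained and 9.74 ± 0.07 in ACC control, and 8.36 ± 0.15 in HC trained and 8.37 ± 0.26 in HC control (SD, n = 3 each). Its training difference was 0.07 in ACC (95% interval −0.19 to 0.32) and −0.01 in HC (−0.27 to 0.24). Over the 9 genes the 95% intervals reached from −0.40 to 0.66 in ACC and from −0.38 to 0.46 in HC. The Y-linked genes, whose level follows the share of males in a pool, averaged 3.89 to 5.11 in ACC trained pools and 3.38 to 3.59 in ACC control pools. In HC they averaged 3.78 to 4.87 in trained and 3.96 to 5.04 in control pools, and their part in the training differences was not tested.

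**Figure D3:**
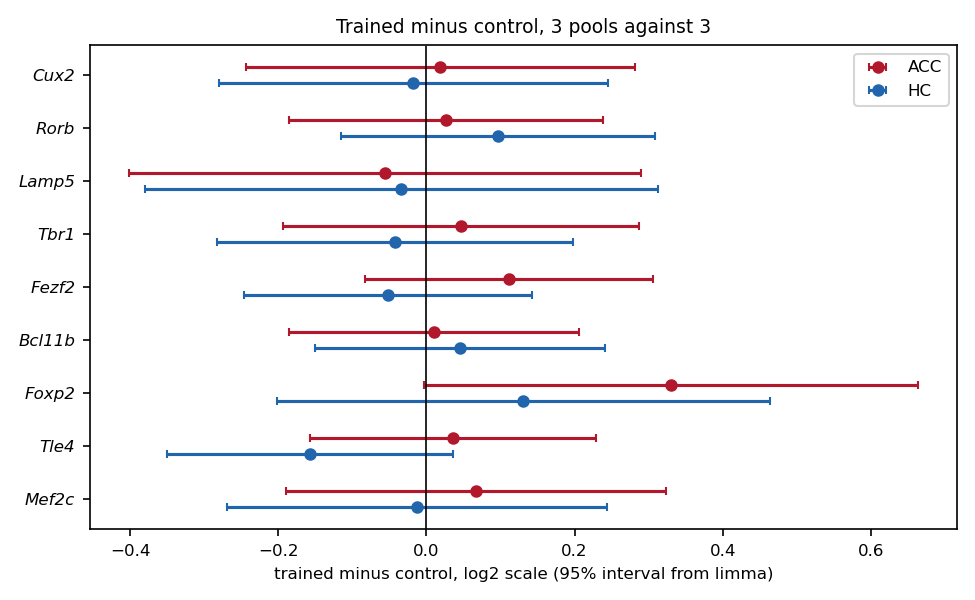
Training difference (x axis, log2 scale, trained minus control, 3 pools against 3) of each gene (y axis) in ACC and in HC, with 95% intervals from limma. All intervals include 0, and that of Foxp2 in ACC, −0.003 to 0.66, reaches farthest to the right.

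Some pools were the highest or lowest of their region in several layer genes at once, and they were picked after their values were seen. ACC control pool 1 had the highest Tle4 value of the ACC pools (7.42) and the lowest Rorb value (6.76), and its Foxp2 value (5.21) was second to ACC trained pool 1 (5.31). The same pool had a mean of 7.36 over 9 genes of oligodendrocytes and myelin, with 6.53 to 6.98 in the rest of the ACC pools and 7.62 to 7.71 in the HC pools. Its mean over striatal genes was also the highest of the ACC pools (5.10, rest 5.00 to 5.03). For layer 6 and subplate genes it was second (5.64) to ACC trained pool 1 (5.71). For genes of hippocampal subfield neurons it was the lowest (5.47, rest 5.51 to 5.59), and for thalamic neurons it lay among the rest (4.51, rest 4.47 to 4.58). HC control pool 2 had the highest values of the HC pools for Lamp5 (6.92), Tbr1 (7.18), Mef2c (8.63), Fezf2 (7.33) and Tle4 (7.37). Its mean over the 9 layer genes was 6.73, while the rest of the HC pools had 6.44 to 6.62. Its mean over 5 genes of claustrum and endopiriform neurons was 6.49, with 6.20 to 6.31 in the rest. Nr4a2, on that list, is also among the layer 6 and subplate genes below. The pool was also the highest HC pool for further upper layer genes (5.90, rest 5.78 to 5.86) and layer 5 genes (6.69, rest 6.52 to 6.65). It was so too for layer 6 and subplate genes (5.73, rest 5.51 to 5.61) and striatal genes (4.97, rest 4.79 to 4.91). It was not for genes of hippocampal subfield neurons (6.62) or thalamic neurons (4.90), where the rest reached 6.77 and 4.985. The part of the dissection in these values was not tested. Without HC control pool 2 the training difference in HC was 0.14 for Lamp5 and 0.12 for Mef2c, against −0.03 and −0.01 with it, and no call changed. Batch 2 minus batch 1 lay between −0.27 for Lamp5 and 0.10 for Cux2 in ACC, and between −0.15 for Bcl11b and 0.13 for Mef2c in HC.

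**Figure D4:**
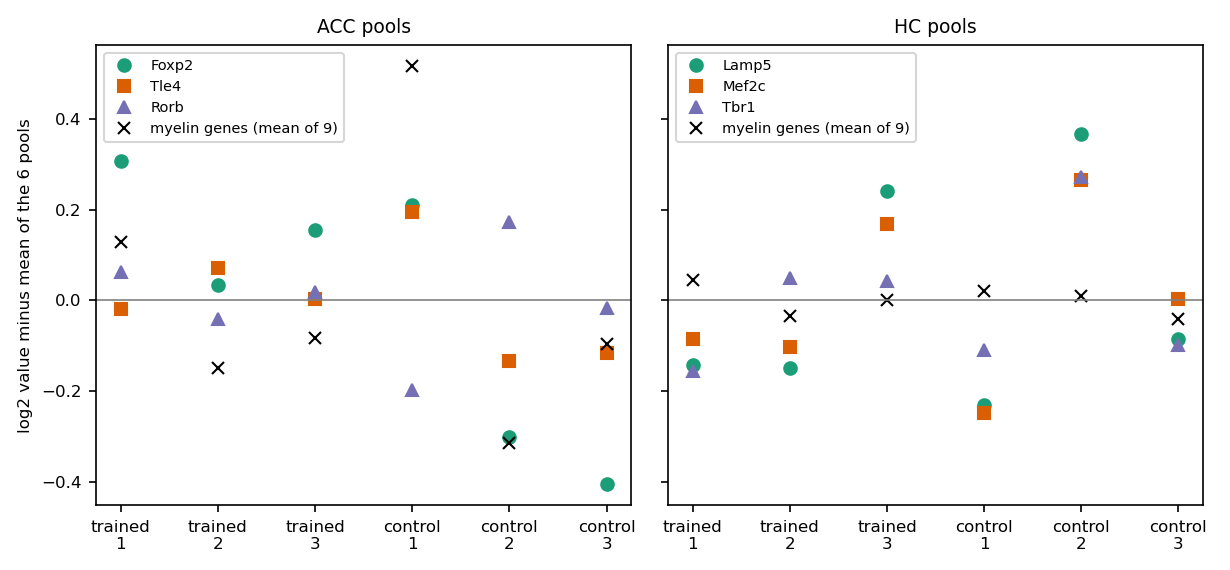
Deviation of each pool (x axis) from the mean of the 6 pools of its region (y axis, log2 scale) for 3 layer genes per region and for the mean of 9 myelin genes. In ACC, control pool 1 is high for Tle4, Foxp2 and myelin genes and low for Rorb, and in HC, control pool 2 is highest for Lamp5, Mef2c and Tbr1.

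Other genes of the cortical layers did not all run the way of the majority of the 9. Of 39 further layer genes measured, 16 were higher and 9 lower in ACC, and 14 did not pass the test, with a median difference of 0.10 against 0.01 over all genes. By the same rule, 8.74% of all genes were higher and 9.71% lower in ACC. Among 15 upper layer genes, 7 were higher and 3 lower. Rasgrf2, an exchange factor of layer 2 and 3 neurons, was higher by 0.64 (SE 0.05) and Stard8 by 1.24 (SE 0.10). Mdga1, an adhesion protein of upper layer neurons, differed by −1.50 (SE 0.09) and Scnn1a, a sodium channel subunit used to label layer 4, by −1.40 (SE 0.12).

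Among 12 layer 5 genes, 5 were higher and 4 lower in ACC. Tox, an HMG-box protein, was higher by 1.10 (SE 0.07) and Deptor, an inhibitor of mTOR, by 0.79 (SE 0.06). Crym, which binds thyroid hormone, differed by −0.93 (SE 0.07) and Bcl6, a transcriptional repressor, by −0.77 (SE 0.06). Among 12 genes of layer 6 and the subplate, 4 were higher and 2 lower. Tshz3, a zinc finger protein, was higher by 0.87 (SE 0.07) and Syt6, a synaptotagmin, by 0.58 (SE 0.08). Nr4a2, an orphan nuclear receptor of subplate and claustrum neurons, averaged 6.10 ± 0.20 in ACC and 8.10 ± 0.15 in HC (SD, n = 6 each), a difference of −2.01 (SE 0.10, adjusted p = 2.8e-08 from limma). Lmo3, a LIM-only protein, differed by −0.73 (SE 0.06).

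**Figure D5:**
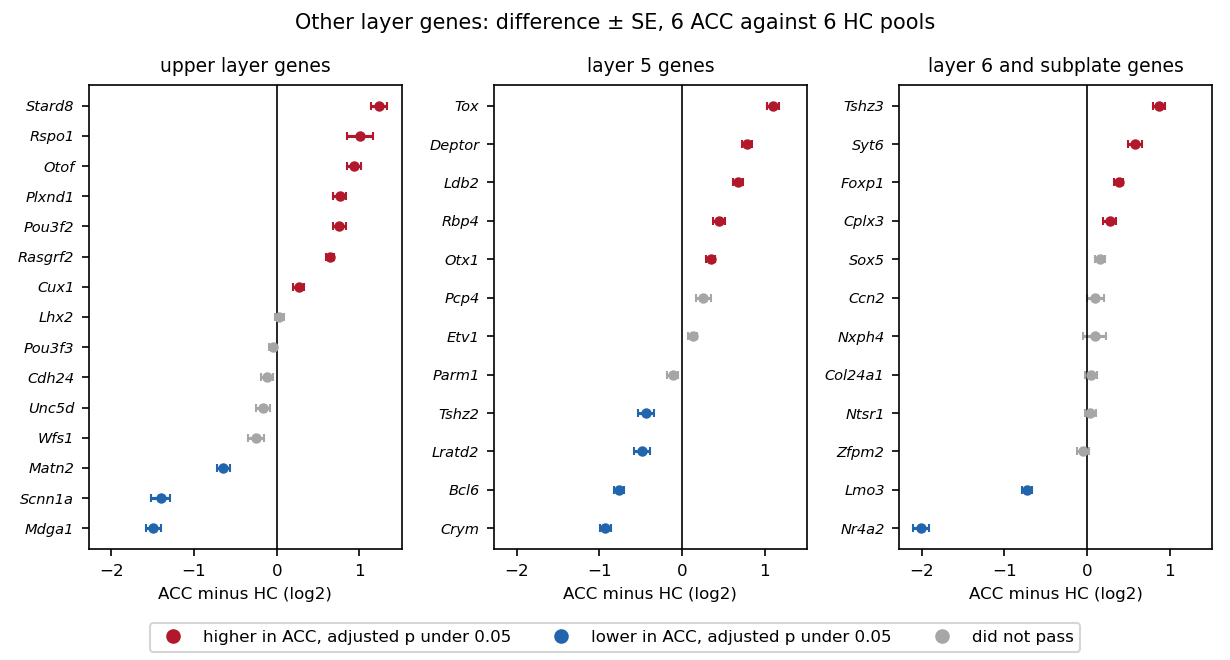
Difference between ACC and HC (x axis, log2 scale, ACC minus HC, with SE) for 39 further layer genes (y axis) in 3 panels by layer, 6 pools against 6. Each panel holds genes on both sides of 0, from Nr4a2 at −2.01 to Stard8 at 1.24, and genes that did not pass the test are grey.

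None of these 39 genes passed the test for training. In ACC 2 of them had an unadjusted p under 0.05 from limma, and 1 had in HC, which are shares no higher than the 6.95% and 6.82% of all genes. They are named here after their values were seen. These were Ntsr1, a receptor of layer 6 neurons, with a training difference of 0.34, and Lmo3 with 0.27, both in ACC, and Cplx3, a complexin of the subplate, with −0.26 in HC.

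Paralogs of the 9 genes went both ways between the regions. Of 21 measured paralogs, 5 were higher and 5 lower in ACC, against 8.74% and 9.71% of all genes. Cux1 was higher by 0.26 beside Cux2, and Rora by 0.47 beside Rorb, which did not pass. Bcl11a, at −0.20, was lower in ACC as Bcl11b was. Foxp1 was higher by 0.38, while Foxp4 (−0.13) and Foxp3 (0.04) did not pass the test. Of the Groucho family, Tle2 was higher by 0.41, Tle1 was lower at −0.47, and Tle3 (0.05) and Tle5 (−0.11) did not pass. Tle6 was higher by 0.58, but its mean of 2.56 was below the background level. Of the MEF2 factors, Mef2a was lower at −0.17 and Mef2d (0.15) and Mef2b (0.04) did not pass. The remaining genes that passed, named after their values were seen, were Lamp2 at −0.26 and Eomes at −0.37, and the mean of Eomes was below background too.

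Markers of other cells gave the setting of these differences, where 8.74% of all genes were higher and 9.71% lower in ACC. Of 12 genes listed as pan-neuronal, 2 were higher and 4 lower in ACC, with Neurod6 at −0.54 and Slc17a6 at −0.74. The list includes genes of only some neurons, and Slc17a6 is also on the list of thalamic neurons. Rbfox3 (0.16), Snap25 (0.16) and Stmn2 (0.05) did not pass the test, while Syt1 was higher by 0.25. Of 14 genes of GABAergic interneurons, 2 were higher and 3 lower, with Vip higher by 1.09 and Prox1 lower. Prox1 is also the factor of dentate granule neurons, so its call does not speak for interneurons alone. Gad1 (−0.10), Gad2 (−0.06) and Slc32a1 (−0.02) did not pass. Astrocyte genes were lower in ACC in 8 of 10 cases, with Gfap at −1.84 and Agt at −1.32, and their mean was 7.22 to 7.30 in ACC pools against 7.76 to 7.90 in HC pools. All 9 genes of oligodendrocytes and myelin were lower, with Cnp at −0.78 and Cldn11 at −0.94. Of 5 genes of claustrum and endopiriform neurons, 1 was higher and 3 lower, led by Nr4a2 and by Lxn at −1.03. None of 4 sex-linked genes passed, with Eif2s3y at −0.52 and Kdm5d at −0.38. The part of other cell types in the layer gene differences was not tested.

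Likeness was measured as Pearson's r over the 12 arrays, among 13465 genes with a symbol and a mean above background, and the arrays share the split between regions. With the group means removed, r still lay between 0.669 and 0.954 for the pairs named here, which were chosen for a high r over the same arrays. Lamp5 was most like Mef2c (r = 0.995), followed by Cckbr, the cholecystokinin receptor of the brain, and Garnl3. Mef2c was most like Kcnh7 (r = 0.997), a potassium channel, then Arhgap25 and Pak7. Tbr1 was most like Cckbr (r = 0.990), then Flrt1 and Tmem232, and Cux2 was most like Stk32c (r = 0.987), then Dusp14 and Agbl4. Foxp2 was most like Nova1 (r = 0.987), then Hecw2 and Trbj2-3, and Fezf2 was most like S100a10 (r = 0.974), then Foxp1 and Mlip. Bcl11b was most like Pkp2 (r = 0.990), a gene that differed by −2.03 between ACC and HC, then Ksr1 and Dock9. For Rorb and Tle4, without a called region difference, the highest values were lower, at 0.949 with Ctsk (then Slc35f6 and Klrg2) and 0.926 with Thoc5 (then Tubgcp5 and Cerk).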

How the data were processed

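Pooled RNA of ACC and HC was hybridised to Affymetrix Mouse Gene 2.0 ST arrays. The authors used Robust Multiarray Average (affy 1.62.0, R 3.6.0, per the submitters' processing notes) with custom probe sets that join all probes of an Entrez gene, and deposited log2 values, which this method makes after background correction and normalization between arrays. Whether a batch adjustment was included is not given in the sources used here. Titles assigned every column to a group and a pool. Of 27381 probe sets, 26794 carried a gene symbol in the platform annotation, and the 587 others entered the tests without being named.

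The log2 values of all genes were fitted in limma 3.58.1 (R 4.3.3) with 4 group means and neither a covariate nor a filter on dim genes, following the study's model of region and training. Contrasts were ACC minus HC (over all pools, trained pools and control pools), trained minus control in each region, and the difference of these. The adjustment of Benjamini and Hochberg ran over the whole table, with a threshold of 0.05. The procedure was tested on simulated data for ACC minus HC over 27381 genes, 50 of which were shifted at each size. The share recovered was 24% for a log2 shift of 0.25, 72% for 0.5 and 100% for 1 and for 1.5, with 7 false calls among 27181 unshifted genes. Far fewer genes were shifted there than were called between ACC and HC, so these shares do not give the sensitivity of that comparison.

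The 9 genes and the 14 other gene lists were chosen with earlier results of these data known. Named are the 9 genes, the 4 genes with the smallest p of each list of other layer genes, paralogs, the 3 genes most like each of the 9 (predicted genes, odorant and vomeronasal receptors and small RNAs left out), and the 2 genes with the smallest p of each cell type list. Genes in more than 1 list count in each. Promoter stretches were read from a RefSeq table. Alternatives were a block for batch or for replicate number, only batch 1, only the arrays of 1 region, a second quantile normalization, median-centred arrays, limma's trend with robust variances, weights per array, only the brighter genes (at or above the median level), and each array left out in turn. Leaving out ACC trained pool 1 together with HC trained pool 2 was added after seeing the data, since they had the highest mean of Y-linked genes and the lowest mean of choroid plexus genes within their regions.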

Additional observations from a re-analysis of the deposited data

How the results depend on the processing

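The precision is set by 3 pools a group, and pools of batch 2 give 1 array a group. Of the 9 layer genes, 7 were called between ACC and HC under batch as a block, batch 1 alone, quantile normalization, median centring, the trend and robust variance model, array weights, the brighter genes alone and without both ACC trained pool 1 and HC trained pool 2. Leaving out single pools gave 7 to 8 calls, the 8 without ACC control pool 1, and control pools alone gave 6. Of the 39 other layer genes, 20 to 27 were called under these alternatives, against 25. Over all genes, batch 1 alone called 2863 against 5054. Among control pools, median centring called 1241 genes higher and 2590 lower in ACC, against 1752 and 1897. All training alternatives called 0 of the 9 genes, and over all genes the one call was for the difference between the regions' training effects without ACC trained pool 2 (1 gene).

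Deviations of same-numbered pools from their group means correlated across genes at −0.103 to 0.031 for pool 1 and −0.123 to 0.043 for pool 2. For pool 3 the values were −0.266 to −0.183. These values do not show whether pools share mice or hold littermates. With the replicate number as a block, 7 layer genes and 26 other layer genes were called between ACC and HC, and 4431 of all genes.

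Signs turned only for differences that had not passed the test, and the cause was not tested. For Tle4 between ACC and HC the difference was 0.018 in batch 1 alone and 0.0024 under quantile normalization. In ACC, the training difference of Cux2 was −0.0056 under quantile normalization and −0.0027 with array weights. That of Bcl11b was −0.022 in batch 1 alone, −0.0063 under quantile normalization and −0.0071 without ACC trained pool 1 and HC trained pool 2, and that of Tle4 was −0.0046 in batch 1 alone. In HC, the training difference of Cux2 was 0.0093 in batch 1 alone, 0.0033 under quantile normalization, 0.0012 with array weights and 0.080 without those 2 pools. That of Bcl11b was −0.0083 in batch 1 alone and −0.0034 without the 2 pools, that of Mef2c was 0.0024 under quantile normalization and 0.036 without the 2 pools, and that of Lamp5 was 0.032 without them.

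Leaving out single pools, the Tle4 difference between ACC and HC had extremes of −0.072 and 0.010. The extremes of the training differences in ACC were −0.027 and 0.086 for Cux2, −0.065 and 0.12 for Rorb, −0.14 and 0.053 for Lamp5, −0.025 and 0.099 for Tbr1, −0.036 and 0.074 for Bcl11b and −0.021 and 0.14 for Tle4. In HC they were −0.14 and 0.080 for Cux2, −0.16 and 0.14 for Lamp5, −0.11 and 0.083 for Tbr1, −0.031 and 0.097 for Bcl11b and −0.14 and 0.12 for Mef2c.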
